A study of Mus musculus with 9 samples.

Results

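Cytosolic ribosomal proteins are the protein subunits of the ribosome of the cytoplasm. They were followed here in rat liver during carbon tetrachloride (CCl4) injury and under schisandrin B, a lignan from the fruit of Schisandra. The members are the rows of a liver RNA-seq count table whose symbol is Rpl or Rps with a number and at most one short suffix, together with Rplp0, Rplp1, Rplp2 and Rpsa; pseudogene names and names beginning with LOC were left out. This gave 97 members among 37203 rows. Of a list of 77 core ribosomal protein genes, 76 had a row of their own and Rpl37a had none, and the other 21 members were like-named rows such as Rpl22l1, Rps27l and Rpl31l4.

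The 9 libraries came from livers of Wistar rats, male per the labels, in 3 groups with 3 libraries each. Schisandrin B livers had received CCl4 for 4 weeks and then CCl4 together with schisandrin B each day for another 4 weeks, at 25 or 50 mg/kg; the labels do not say which dose a library had. Fibrosis livers had received CCl4 alone, given for 8 weeks, 3 times weekly, as 2 mL/kg of a 50% mixture with olive oil, a model of liver fibrosis; the group keeps its label here. Normal livers had received olive oil in the same volume. Total RNA was extracted with Trizol and sequenced on the Ion Proton; rat ages are not given, and the labels do not say whether each library was 1 rat, so that p-values measure the spread between libraries.

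The ribosome is built from a large and a small subunit, and nearly all of their proteins are needed in equal amounts. The mRNAs of ribosomal proteins begin with a pyrimidine stretch, the TOP motif, through which the growth-regulating kinase complex mTORC1 controls their translation, and free Rpl5 and Rpl11 bind Mdm2, the inhibitor of p53. Ribosomes are assembled in the nucleolus around rRNA made by RNA polymerase I, and in the liver the output of new ribosomes is known to rise when hepatocytes grow or divide, as in regeneration after injury.

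Some labels were not borne out in full by the files. The collagen genes that mark scar tissue were not called higher in fibrosis than in normal livers (Col1a1 0.38, Col1a2 0.17 and Col3a1 0.13 as log2 fold change; edgeR, adjusted p = 0.506, 0.739 and 0.718). All 3 were called higher in schisandrin B than in fibrosis livers (1.55, 1.07 and 0.72; adjusted p = 0.015, 0.0411 and 0.0462). Whether these calls hold with a library left out was not examined. Acta2, the marker of activated stellate cells, rose in fibrosis over normal livers (1.54, adjusted p = 0.00196) and fell in schisandrin B against fibrosis livers (-1.86, adjusted p = 0.000718). The labelled organism is mouse and the labelled build GRCm38, while the strain is Wistar rat and the table uses rat names, with 54 rows beginning RT1- (the rat major histocompatibility complex) and 0 beginning H2- (that of the mouse). No normal library had a read (0 counts) of the Y-linked genes Kdm5d and Eif2s3y, although the labels call the rats male. Kdm5d was at 12.6, 13.3 and 11 CPM (counts scaled to library size) in schisandrin B libraries and 5.91, 7.57 and 10.6 CPM in fibrosis libraries, and Eif2s3y at 9.08 to 13.3 CPM over these 6. Ddx3y, the third Y-linked gene with a row, was low in all groups, with 16, 7 and 6 counts in schisandrin B libraries, 12, 16 and 26 in fibrosis libraries and 12, 12 and 32 in normal libraries. It does not show the difference. In every comparison with normal livers, treatment cannot be told apart from whatever gave the difference in Kdm5d and Eif2s3y. For these genes schisandrin B and fibrosis livers did not pass the test of a difference (edgeR, adjusted p = 0.0983 and 0.524). The member Rps4y2, which carries a Y in its name, was read in every library, at 5.93 to 6.71 CPM in schisandrin B, 4.69 to 9.47 CPM in fibrosis and 5.15 to 10.9 CPM in normal livers.

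Library totals were 10320299 to 14377435 counts in schisandrin B, 11559361 to 12838775 in fibrosis and 13361881 to 16255167 in normal livers, and 3 counts corresponded to 0.176 to 0.287 CPM. CPM values were scaled with edgeR's TMM factors, which assume that most genes do not differ and lay between 0.839 and 1.33. All 15 hepatocyte markers were read in every group, and their summed level was 227300 to 250300 CPM in schisandrin B, 106400 to 150900 CPM in fibrosis and 266600 to 299700 CPM in normal livers. Alb made up much of this sum, with group means of 141000, 51000 and 172000 CPM. Of the 15, 7 were called lower and 1 higher in fibrosis over normal livers (median log2 fold change -0.58). In schisandrin B over fibrosis livers 7 were called higher and 1 lower (0.55). Cholangiocyte markers (8 of 8 read in each group) summed to 30.33 to 52.56, 75.98 to 83.5 and 36.33 to 46.39 CPM in the same order of groups. Neutrophil markers (7, 7 and 8 of 8 read) summed to 2.374 to 6.489, 17.26 to 22.61 and 5.825 to 10.36 CPM. In fibrosis over normal livers 8 of 9 tested T and NK cell markers were lower (median log2 fold change -1.39), as were 4 of 6 B and plasma cell markers (-1.52), 4 of 10 endothelial markers (-0.48) and 1 of 13 macrophage markers (-0.48). Of 13 stellate cell and fibroblast markers 5 were higher and 1 lower (0.38). In schisandrin B over fibrosis livers 2 of the T and NK cell, 3 of the B and plasma cell and 3 of the endothelial markers were higher, and of the stellate cell markers 5 were higher and 3 lower. Over all rows tested, 25.4% were called higher and 22.9% lower in fibrosis over normal livers. In schisandrin B over fibrosis livers these were 22.5 and 24.8%. There, T and NK cell and endothelial markers called higher (22.2 and 30%) and stellate cell markers called lower (23.1%) lay near these shares. In the order of groups above, T and NK cell markers (11 of 12 with a row) summed to 72.55 to 104.1, 56.16 to 101.9 and 112.4 to 158.7 CPM. B and plasma cell markers (8 of 9) summed to 247.2 to 363, 169.8 to 292.2 and 269.2 to 459.3 CPM. Endothelial markers summed to 422.7 to 494.1, 391.9 to 485.6 and 486.3 to 624 CPM. Macrophage markers (13 of 14) summed to 1170 to 1804, 1181 to 2442 and 1838 to 2824 CPM. Stellate cell and fibroblast markers summed to 510 to 702, 300.7 to 528.6 and 280.1 to 431.7 CPM. The part of these shifts in the ribosomal protein results was not tested, and in whole liver a change in the number of cells of a type and a change in RNA per cell cannot be told apart.

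Ribosomal protein genes have many processed copies in mammalian genomes, which affects how reads are assigned. The table held 39 rows named as a pseudogene or copy of 21 core genes, and for 10 of these genes the copies held more of the gene's counts than its own row, among them Rps28 with 96.3%, Rps2 with 91.3%, Rpl26 with 88.8% and Rpl6 with 68.6%. In 10 of the 76 core rows (Rpl7a, Rpl9, Rpl21, Rpl35a, Rpl36a, Rpl37, Rpl38, Rpl39, Rplp2 and Rps28) every group mean was below 5 CPM. Rpl37a was read only through its 3 copies, which had 1275, 1797 and 2140 counts in schisandrin B libraries, 1098, 1038 and 1287 in fibrosis libraries and 771, 884 and 775 in normal libraries. Of the 97 members, 87 passed edgeR's filter on low counts and were tested among 14581 rows; these were 74 core genes (43 of the large and 31 of the small subunit) and 13 like-named rows. Transcript lengths of the rat were not used, so levels are compared between groups for one gene and not between genes.

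As a pool, the members took a larger share of all counts in fibrosis livers than in either other group. The share was 0.781, 0.698 and 0.864% in schisandrin B libraries, 1.25, 1.08 and 1.24% in fibrosis libraries and 0.644, 0.564 and 0.56% in normal libraries. The 3 groups did not overlap: every fibrosis library was above every schisandrin B library, and each of these was above every normal library. The means were 0.781 ± 0.0831% in schisandrin B livers, 1.19 ± 0.0951% in fibrosis livers and 0.589 ± 0.0473% in normal livers (SD, n = 3 each). Leaving out the counts of the 20 most counted rows gave shares of 1.00 to 1.25%, 1.44 to 1.62% and 0.821 to 0.967% in these groups. The copy rows, which are no members, took 0.085 to 0.116% in schisandrin B, 0.133 to 0.159% in fibrosis and 0.0702 to 0.0931% in normal libraries, again with no overlap between fibrosis and the other groups.

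On the TMM scale the median tested member stood above the mean of the normal libraries by 0.4, 0.24 and 0.63 (log2) in schisandrin B libraries and by 0.76, 0.39 and 0.41 in fibrosis libraries, against 0.11, -0.09 and -0.04 in the normal libraries themselves. On this scale both CCl4-treated groups lay above all normal libraries and overlapped each other. The third schisandrin B library and the first fibrosis library were the highest of their groups.

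**Figure D1:**
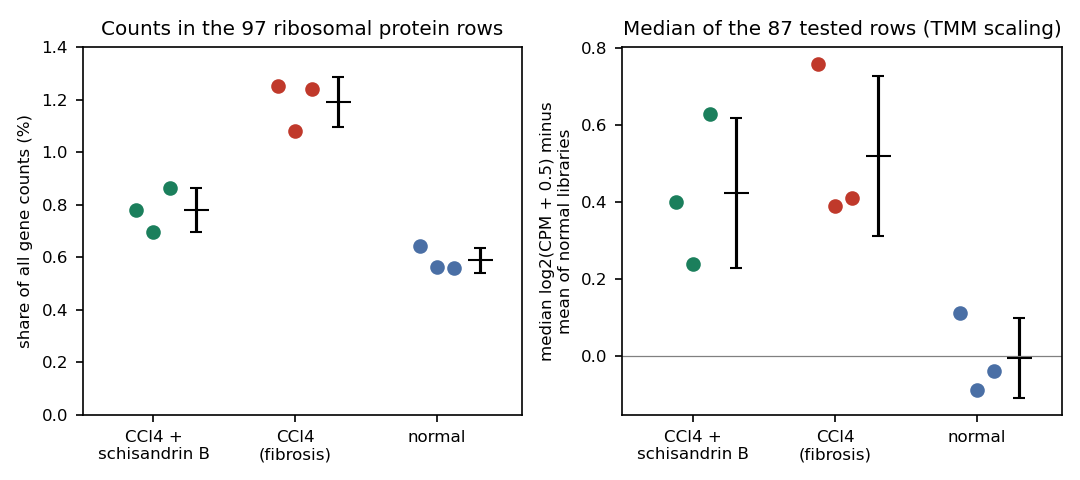
Left, the share of all gene counts (%) that fell in the 97 ribosomal protein rows; right, the median over the 87 tested rows of log2(CPM + 0.5) minus the mean of the normal libraries. Points are libraries, and the line with bars is the group mean ± SD (n = 3). Fibrosis libraries hold 1.08 to 1.25% of counts in these rows, above all others, while on the right schisandrin B and fibrosis libraries overlap.

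In fibrosis livers, set against normal livers, ribosomal protein transcripts were higher across both subunits, most of them by less than 2-fold. Of the 87 tested members 37 rose and 0 fell (edgeR's quasi-likelihood test, Benjamini-Hochberg adjusted p under 0.05 over all 14581 rows); 0 members were lower at an unadjusted p under 0.05, and DESeq2 and limma voom also called 0 lower. Over all rows tested, 25.4% were called higher and 22.9% lower, so the members were called higher more often (42.5%) and lower less often than the table as a whole; neither share was tested. Their log2 fold change was positive in 82 and negative in 5, from -0.23 to 1.96, with a median of 0.54 beside 0.03 over all rows. Of the core genes, 20 of 43 in the large subunit rose (median log2 fold change 0.55) and 11 of 31 in the small subunit (0.48), and 6 of the 13 like-named rows rose (0.69). With library totals as the scale, which leaves the median of all rows at 0.46, 69 members were called higher and 0 lower (median 0.95), beside 38.8% higher and 13.1% lower over all rows. The count of 37 fell to 24 without the third normal library.

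Rpl3, which lines the peptidyl transferase region of the large subunit, had the lowest adjusted p among members. It was at 282, 272 and 277 CPM in schisandrin B livers and 623, 686 and 693 CPM in fibrosis livers, against 285, 240 and 268 CPM in normal livers. All fibrosis libraries lay at more than 2 times the level of any other library, and the other 6 lay close together. The log2 fold change in fibrosis over normal livers was 1.34 ± 0.17 (SE; edgeR, adjusted p = 9.02e-05), a 2.53-fold rise. Changes given from here on are log2 fold changes (± SE) with adjusted p from the same edgeR fit, unless another scale is named.

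The like-named paralogs Rpl22l1, Rpl7l1 and Rps27l followed, which replace or accompany a core protein. Rpl22l1, the paralog of the large subunit protein Rpl22, was at 43.1, 26.3 and 26.2 CPM in fibrosis livers, against 12.6, 9.69 and 10.2 CPM in normal livers; the groups did not overlap, and the first fibrosis library stood highest. It rose by 1.56 ± 0.24 (log2, SE; adjusted p = 0.000271). Rpl7l1, a paralog of Rpl7, was at 112, 120 and 107 CPM in fibrosis livers and 55.7, 45.6 and 54.9 CPM in normal livers, a rise of 1.12 ± 0.16 (adjusted p = 0.00016) with wide separation of the groups. Rps27l, a paralog of Rps27 known in human cells as a p53 target, was at 55.2, 51.9 and 46.5 CPM in fibrosis livers and 26.3, 24.3 and 27.4 CPM in normal livers, a rise of 0.98 ± 0.16 (adjusted p = 0.000449). The libraries of the 2 groups did not overlap for these 3, which the rule for naming members by adjusted p requires.

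Rpl10a, the protein of the mobile L1 stalk, was at 55.5, 33.5 and 39.6 CPM in fibrosis livers against 18.6, 16.2 and 15 CPM in normal livers, and rose by 1.37 ± 0.23 (adjusted p = 0.00052). Its fibrosis libraries differed among themselves, and all exceeded the normal ones, as that rule requires. Also named by the same rule were Rps3a, of the small subunit platform (0.97 ± 0.19, adjusted p = 0.00172) and Rpl5l1, a like-named row (0.92 ± 0.18, adjusted p = 0.00142). The highest log2 fold change of a member belonged to Rpl12, at the base of the P stalk, with 17.2, 9.16 and 6.4 CPM in fibrosis livers and 3.44, 2.64 and 2.35 CPM in normal livers (1.96, adjusted p = 0.0012). Its fibrosis libraries were far apart, the first highest, and all exceeded the normal ones; its copy took 51% of its counts; with the copy added the log2 fold change was 1.62 ± 0.31 (adjusted p = 0.00128).

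Other well-known members were near the threshold or did not pass it. Rplp0, the P stalk protein often used as a reference transcript, was at 1070, 1040 and 933 CPM in fibrosis livers and 806, 601 and 678 CPM in normal livers, without overlap; it was called higher by 0.55 (adjusted p = 0.0431), and this turned to -0.03 relative to the ribosomal protein total. Rpsa, the small subunit protein also known as laminin receptor, was called higher by 0.52 (adjusted p = 0.0449), which turned to -0.07 on that scale. Both calls were lost with upper-quartile scaling (0.44, adjusted p = 0.0891 and 0.41, adjusted p = 0.0951). They were also lost with DESeq2 size factors (0.53 and 0.5) and in a fit of the 2 groups alone (0.54 and 0.52). The call of Rplp0 was also lost without the first or second fibrosis or the second or the third normal library (0.51, 0.53, 0.45 and 0.52), and that of Rpsa without the first fibrosis or any 1 normal library (0.39, 0.58, 0.46 and 0.5). Rpl11 had a log2 fold change of 0.47 (adjusted p = 0.0646), Rpl22 of 0.38 (0.124), Rps27 of 0.42 (0.102), Rpl39, an exit tunnel protein, of 0.29 (0.529), Rps6, the S6 kinase substrate, of 0.4 (0.478) and Rps19, the gene most often mutated in human Diamond-Blackfan anaemia, of -0.19 (0.639), with adjusted p in brackets.

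By position in the ribosome, 6 of 9 proteins of the peptide exit tunnel rose in fibrosis over normal livers (median log2 fold change 0.58): Rpl4, Rpl17, Rpl19, Rpl23a, Rpl31 and Rpl35. Rpl4, which reaches into the tunnel, was at 611, 488 and 416 CPM in fibrosis livers, against 291, 283 and 298 CPM in normal livers. All 3 fibrosis libraries were above the normal ones, and the rise was 0.8 (adjusted p = 0.00506). In the P stalk, which recruits elongation factors, 2 of 4 rose, Rplp0 and Rpl12. Along the mRNA channel of the small subunit 3 of 8 rose, among them Rps23 and Rpsa, and of 10 tested genes linked to Diamond-Blackfan anaemia in humans 2 rose. The last are 20% of their list and the channel proteins 37.5% of theirs, beside 25.4% of all rows called higher, so neither count is read as particular to its list. The shares of 66.7% in the exit tunnel and 50% in the P stalk come from 9 and 4 genes and were not tested. In the 5S particle Rpl5 rose by 0.72 (adjusted p = 0.00569), with 229, 167 and 179 CPM in fibrosis livers and 122, 118 and 109 CPM in normal livers, while its partner Rpl11 did not pass the test.

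**Figure D2:**
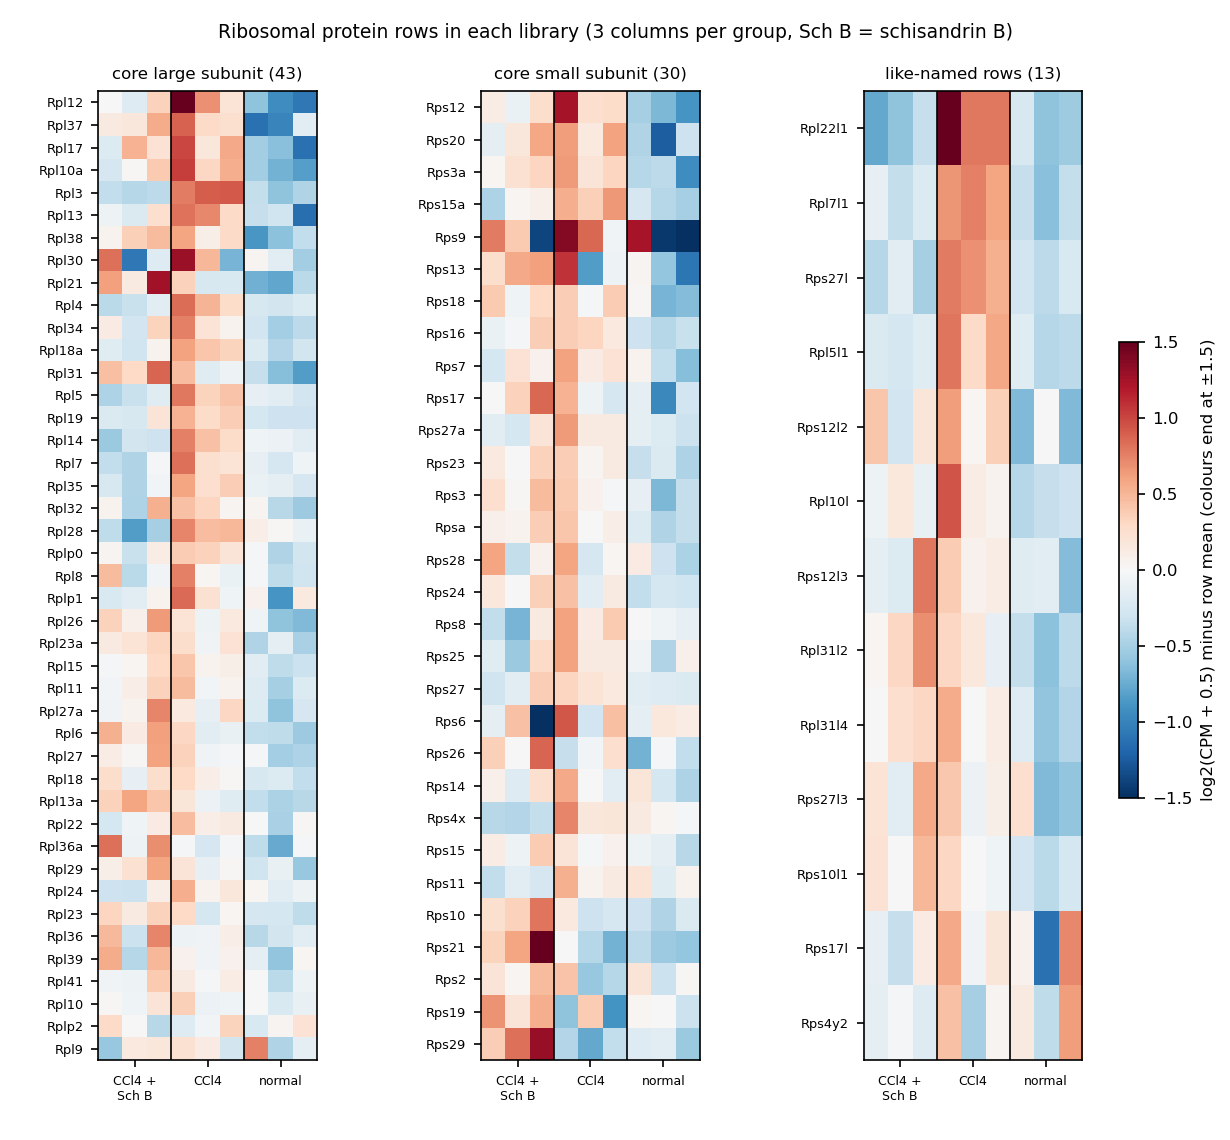
Tested ribosomal protein rows (86 drawn) in each library, as log2(CPM + 0.5) minus the row's mean over the 9 libraries, ordered within each class by the log2 fold change of fibrosis over normal livers. Red is above and blue below the row mean, and colours end at 1.5 in either direction. The fibrosis columns are red for most rows, with 81 of the 86 rows above normal; a few rows, among them Rps29 and Rps21, are red in the schisandrin B columns.

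The CCl4-treated livers differed from normal ones in scale as well as in make-up, so the members were also measured against their own total, with the summed member counts as library size. On this scale all rows had a median log2 fold change of -0.55 in fibrosis over normal livers, with 12% of rows called higher and 39.6% lower, and 7 members were called higher and 2 lower (member median -0.06). Those higher within the pool were Rpl12 (1.33 ± 0.32), Rpl22l1 (0.95 ± 0.21), Rpl17, an exit tunnel protein (0.83 ± 0.3), Rps12 (0.82 ± 0.28), Rpl3 (0.77 ± 0.22), Rpl10a (0.76 ± 0.21) and Rpl7l1 (0.54 ± 0.19). Those lower were Rps29, of the small subunit head (-0.81 ± 0.25, adjusted p = 0.0166), and Rps2, at the mRNA entry (-0.71 ± 0.22, adjusted p = 0.0146). Most reads of Rps2 lay in the copy rows, and on the TMM scale its log2 fold change was -0.1 for its own row and 0.42 with the copies added.

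Under schisandrin B, set against fibrosis livers, part of the members were lower and a few small subunit transcripts were higher. Of 87 tested members, 18 fell and 4 rose, beside 24.8% of all rows called lower and 22.5% called higher, so the members were called lower about as often as any row and higher less often (20.7 and 4.6% of members); neither share was tested. Their log2 fold change was negative in 58 and positive in 29, from -1.68 to 1.44, with a median of -0.18 beside -0.03 over all rows. In the large subunit 9 of 43 core genes fell and 1 rose, in the small subunit 5 of 31 fell and 3 rose, and 4 of 13 like-named rows fell. With library totals as the scale, 33 members were called lower and 2 higher (median -0.44, all rows -0.3), beside 32.2% and 15.6% of all rows. The median was 0.02 without the first fibrosis library, the highest of its group by the member median; without it 9 members were called higher and 15 lower. The 18 lower calls became 11 without the first or without the second schisandrin B library, and the 4 higher ones became 2 without the third schisandrin B or the third fibrosis library. This comparison shares the fibrosis libraries with the one against normal livers, so a high fibrosis value enters both.

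Rpl22l1 fell furthest, to 8.6, 9.62 and 11.6 CPM in schisandrin B livers, against 43.1, 26.3 and 26.2 CPM in fibrosis livers, a log2 fold change of -1.68 ± 0.24 (SE; edgeR, adjusted p = 0.000194). The lowest fibrosis library was at more than 2 times the highest schisandrin B library. Rpl3 fell by 1.27 on the log2 scale (SE 0.17, adjusted p = 0.000142), to the values given above, which lay within 10 CPM of each other in the schisandrin B libraries. Rps27l was at 23.7, 28.7 and 22.5 CPM in schisandrin B livers and 55.2, 51.9 and 46.5 CPM in fibrosis livers, and fell by 1.04 (adjusted p = 0.000348). Rpl7l1 was at 65, 55 and 61 CPM in schisandrin B livers and 112, 120 and 107 CPM in fibrosis livers, and fell by 0.9 (adjusted p = 0.000688). For these 4 genes no schisandrin B library reached a fibrosis library, which the naming rule requires.

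Rpl28, a large subunit protein, was at 63.6, 46.3 and 58.7 CPM in schisandrin B livers, against 138, 114 and 117 CPM in fibrosis livers, and fell by 1.13 (SE 0.17, adjusted p = 0.00031). It is a case where the schisandrin B libraries also lay under all normal ones, at 88.5, 83.8 and 77.5 CPM, though that difference missed the threshold (log2 fold change -0.57, adjusted p = 0.0564). Rpl14, also of the large subunit, was at 67.9, 82.3 and 80.5 CPM in schisandrin B livers and 169, 136 and 121 CPM in fibrosis livers (-0.88 ± 0.17, adjusted p = 0.00153). Rpl5, which carries 5S rRNA, was at 96.4, 105 and 117 CPM in schisandrin B livers and 229, 167 and 179 CPM in fibrosis livers (-0.85 ± 0.18, adjusted p = 0.00223), and Rpl5l1 fell by 0.81 (adjusted p = 0.00315). In both of these large subunit genes the schisandrin B libraries stayed below every fibrosis library, again as the naming rule requires. Rpl11, the partner of Rpl5, had a log2 fold change of -0.04 (adjusted p = 0.885), Rpl22 of -0.31 (0.215) and Rps27 of -0.22 (0.379), with adjusted p in brackets.

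The 4 members that rose under schisandrin B relative to fibrosis livers were Rps29, Rps21, Rps10 and Rpl13a. Rps29, a zinc-binding protein of the small subunit head, was at 20.3, 27.9 and 39.3 CPM in schisandrin B livers, against 11.3, 8.93 and 11.9 CPM in fibrosis livers and 13.5, 13.8 and 10.4 CPM in normal livers. All 3 schisandrin B libraries stood above the 6 others, the third by most, and the rise over fibrosis livers was 1.44 ± 0.25 (adjusted p = 0.000702). Rps21, also of the small subunit, was at 13.7, 16.5 and 36.7 CPM in schisandrin B livers, against 10.8, 7.87 and 6.4 CPM in fibrosis livers and 8.07, 7.25 and 7.04 CPM in normal livers, a rise of 1.41 ± 0.35 over fibrosis livers (adjusted p = 0.00594). In schisandrin B livers the third library stood at more than 2 times the other two. Rpl13a, a large subunit protein, was at 59.4, 70.4 and 62.6 CPM in schisandrin B livers, 52.9, 43.7 and 41 CPM in fibrosis livers and 35.9, 33.5 and 34.8 CPM in normal livers; the groups did not overlap, and it was called higher than in fibrosis livers by 0.48 (adjusted p = 0.0253). With library totals that call was lost (0.22, adjusted p = 0.233), and it was lost too without the second or the third schisandrin B library (0.42 and 0.51) or the second or the third fibrosis library (0.45 and 0.4). Without a filter on low counts the call was lost as well (0.46, adjusted p = 0.0729). Rps10, linked to Diamond-Blackfan anaemia in humans, was at 13, 14 and 19.4 CPM in schisandrin B livers and 12.1, 8.7 and 9.1 CPM in fibrosis livers (0.63, adjusted p = 0.0355). The like-named row Rps10l1 held more counts (2164 against 540 in schisandrin B and 2349 against 420 in fibrosis libraries). Rps10l1 was not called (0.16, adjusted p = 0.49), and whether the 2 rows share reads was not tested.

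**Figure D3:**
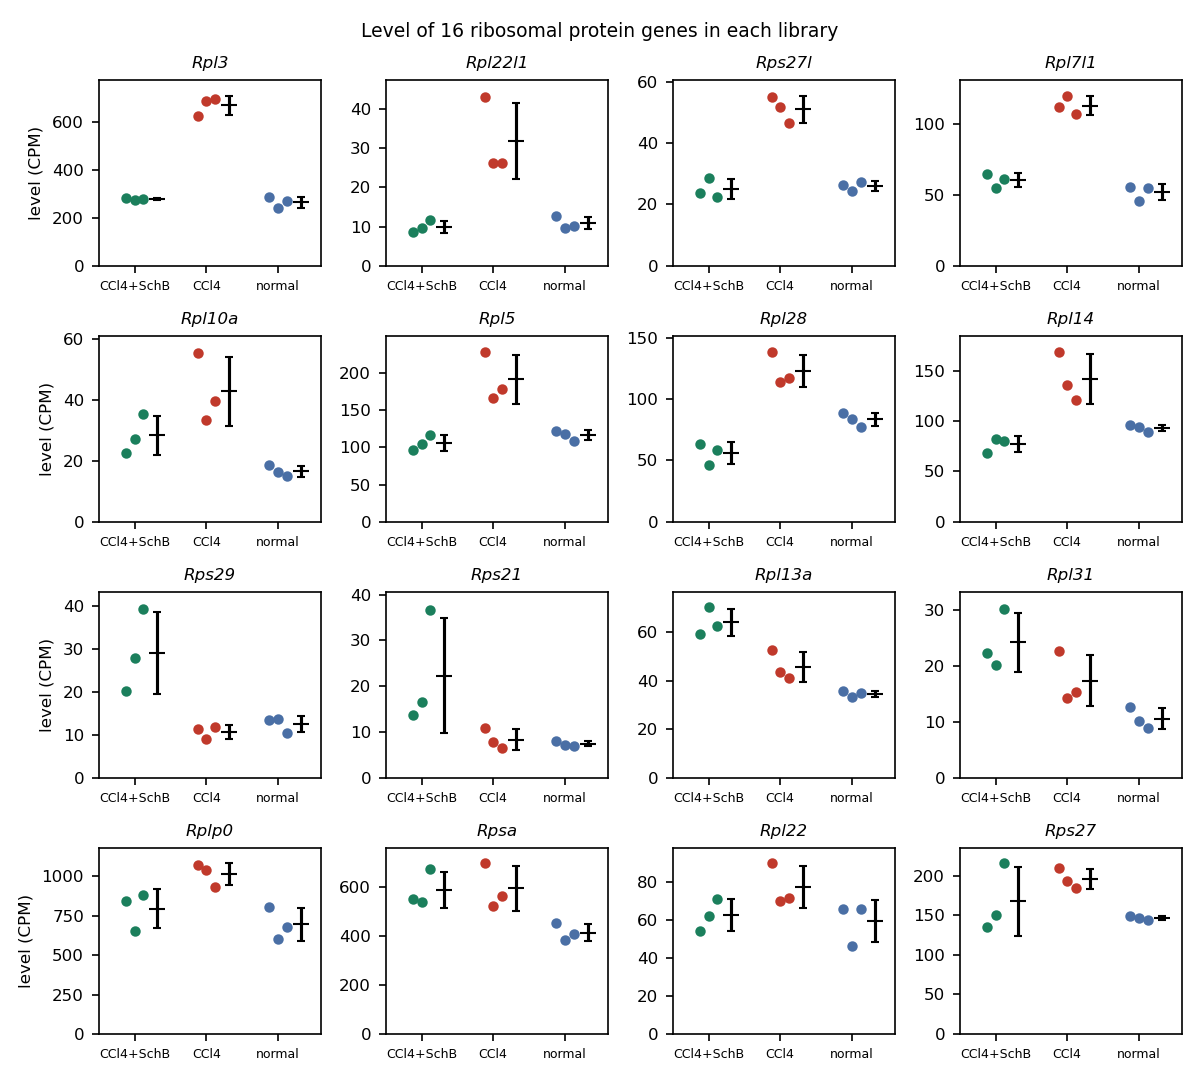
Level (CPM, TMM-scaled, axes from 0) of 16 ribosomal protein genes in each library. Points are libraries and the line with bars is the group mean ± SD (n = 3). Rpl3, Rpl22l1, Rps27l and Rpl7l1 are highest in the fibrosis libraries, and Rps29 and Rps21 are highest in the schisandrin B libraries.

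Measured against the ribosomal protein total, 16 members were called higher and 7 lower in schisandrin B than in fibrosis livers (median 0.15, all rows 0.31), beside 30.1% of all rows higher and 15.3% lower. The 7 lower were Rpl22l1 (-1.32 ± 0.21), Rpl3 (-0.94 ± 0.22), Rpl28 (-0.79 ± 0.19), Rps27l (-0.68 ± 0.21), Rpl7l1 (-0.57 ± 0.19), Rpl14 (-0.53 ± 0.19) and Rpl5 (-0.5 ± 0.18). The higher ones were led by Rps29 (1.76 ± 0.25), Rps21 (1.73 ± 0.3), Rpl21 (1.24 ± 0.38) and Rps19 (1.1 ± 0.34). Rpl21 was at 3.15, 2.11 and 5.2 CPM in schisandrin B livers and 2.51, 1.51 and 1.53 CPM in fibrosis livers, so few reads carry its value and the libraries overlapped. Rps19 was at 19, 13.5 and 17.3 CPM in schisandrin B livers and 7.53, 15.4 and 6.05 CPM in fibrosis livers, with overlap through the second fibrosis library.

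**Figure D4:**
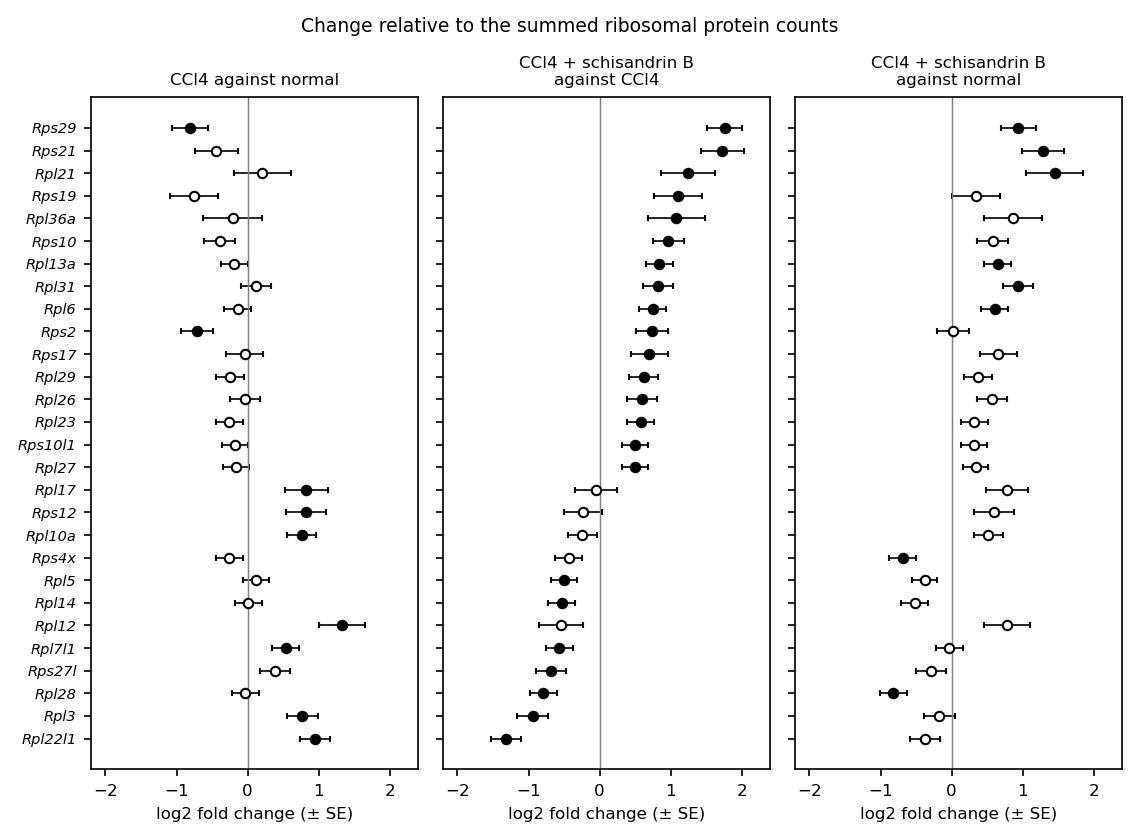
Log2 fold change (± SE) of the members called in at least one comparison when the summed ribosomal protein counts are the library size. Filled points passed an adjusted p of 0.05 and open ones did not; rows are ordered by schisandrin B over fibrosis. Rpl22l1 and Rpl3 are filled to the right in fibrosis over normal livers and to the left in schisandrin B over fibrosis livers, and Rps29 runs the other way.

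In schisandrin B livers set against normal livers, 10 of 87 tested members rose and 0 fell, beside 5.25% of all rows called higher and 5.25% called lower. At an unadjusted p under 0.05, 36 members were higher and 2 lower. DESeq2 called 20 higher and 1 lower. Limma voom also called 1 lower, and its higher calls are not given here. The median log2 fold change was 0.44, beside 0 over all rows, and ran from -0.57 to 1.73. With library totals 30 members were called higher and 0 lower (median 0.6, all rows 0.16), beside 8.44% and 3.56% of all rows. The count of 10 depended on single libraries. Without the third schisandrin B library 1 was called, without the third normal library 2, without the first schisandrin B library 4, and without the first or the second normal library 5 each.

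The members with the lowest adjusted p here were Rpl13a, by 0.89 (adjusted p = 0.0055), and Rpl31, an exit tunnel protein, by 1.2 (adjusted p = 0.0102). Rpl31 was at 22.3, 20.1 and 30.2 CPM in schisandrin B livers, 22.6, 14.2 and 15.3 CPM in fibrosis livers and 12.6, 10.2 and 8.83 CPM in normal livers. Its schisandrin B libraries lay above the normal ones and overlapped the fibrosis ones, and it was also called higher in fibrosis than in normal livers (0.72, adjusted p = 0.0276). The like-named row Rpl31l4 held more counts than Rpl31 (2321 against 839 in schisandrin B and 1667 against 406 in normal libraries). In schisandrin B over normal livers Rpl31l4 was not called (0.6, adjusted p = 0.072), nor was Rpl31l2 (0.92, adjusted p = 0.0607). Whether these rows share reads with Rpl31 was not tested. Rps29 rose by 1.21 (adjusted p = 0.0107), Rps21 by 1.58 (adjusted p = 0.0164), Rps3a by 0.77 (adjusted p = 0.0281) and Rpl23a, of the exit tunnel, by 0.58 (adjusted p = 0.0448). Rps3a was at 62.2, 71.2 and 76.2 CPM in schisandrin B livers and 94.6, 69.7 and 76.4 CPM in fibrosis livers, against 45.2, 46.2 and 31.7 CPM in normal livers, so that both CCl4-treated groups were above the normal one and overlapped each other. Rpl6 and Rpl26 were called higher by 0.87 (adjusted p = 0.0147) and 0.81 (adjusted p = 0.0368) on their own rows and by 0.29 (adjusted p = 0.348) and 0.45 (adjusted p = 0.111) with the copy rows added, where neither passed. For Rpl6 the sign against fibrosis livers also turned, 0.41 on its own row and -0.35 with its copy. Rps10 and Rpl21 made up the rest of the 10. Rps10l1 was not called here either (0.57, adjusted p = 0.0628).

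The call of Rpl13a held whichever library was left out, and those of the other 7 named by the rule were lost without 1 library or another. Without the third schisandrin B library the log2 fold changes no longer passing were Rpl31 at 1, Rps29 at 0.94, Rps21 at 1.02, Rpl6 at 0.77, Rps3a at 0.7, Rpl26 at 0.65 and Rpl23a at 0.53. Without the third normal library they were Rpl31 at 1.08, Rps29 at 1.09, Rps21 at 1.54, Rpl6 at 0.81, Rps3a at 0.61, Rpl26 at 0.7 and Rpl23a at 0.52. Without the first schisandrin B library Rpl6, Rps3a, Rpl26 and Rpl23a were lost (0.83, 0.85, 0.83 and 0.63), and without the second Rps3a and Rpl23a (0.75 and 0.59). Without the first normal library Rps21, Rps3a and Rpl23a were lost (1.63, 0.84 and 0.53), and without the second Rps21, Rps3a and Rpl26 (1.55, 0.86 and 0.72). Their directions stayed the same in these fits.

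Relative to the ribosomal protein total, 6 members were called higher and 2 lower in schisandrin B than in normal livers (median 0.19, all rows -0.24), beside 2.91% of all rows higher and 9.11% lower. Higher were Rpl21 (1.45 ± 0.4), Rps21 (1.29 ± 0.3), Rpl31 (0.94 ± 0.21), Rps29 (0.94 ± 0.25), Rpl13a (0.65 ± 0.19) and Rpl6 (0.61 ± 0.19). Lower were Rpl28 (-0.82 ± 0.19) and Rps4x (-0.69 ± 0.19), the X-linked small subunit gene, with 103, 101 and 107 CPM in schisandrin B livers, 229, 155 and 156 CPM in fibrosis livers and 151, 140 and 135 CPM in normal livers on the TMM scale. Both had their lowest levels in the schisandrin B libraries.

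Paralog pairs give a measure that no scaling between libraries can move, the counts of a paralog per 100 counts of its partner. Rpl22l1 had 15.9, 15.4 and 16.3 counts per 100 of Rpl22 in schisandrin B livers, 47.9, 37.5 and 36.5 in fibrosis livers and 19.2, 20.8 and 15.5 in normal livers. The fibrosis ratios were all higher than the others, and the log2 ratio differed by 1.14 in fibrosis over normal livers and by -1.35 in schisandrin B over fibrosis livers. Each had p = 0.1 in an exact two-sided permutation test, the smallest that 3 against 3 libraries allow; schisandrin B over normal livers gave -0.21 (exact permutation p = 0.3).

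Rps27l had 17.4, 19.1 and 10.3 counts per 100 of Rps27 in schisandrin B livers, 26.4, 26.9 and 25.2 in fibrosis livers and 17.7, 16.5 and 19 in normal livers. Again the fibrosis ratios were all highest, by 0.56 over normal livers and, for schisandrin B over fibrosis livers, -0.79 (exact permutation p = 0.1 each). Rpl7l1 per 100 of Rpl7 averaged 29.9 ± 4.68 in schisandrin B livers, 34.8 ± 8.22 in fibrosis livers and 23.3 ± 1.18 in normal livers (SD, n = 3 each), and both CCl4-treated groups lay above all normal libraries. Rpl10l per 100 of Rpl10 averaged 5.86 ± 1.13, 7.56 ± 1.37 and 5.07 ± 0.529 in the same order of groups, with the schisandrin B libraries overlapping both others. Rpl3l and Rpl39l, paralogs of Rpl3 and Rpl39, had 8 and 13 counts over all 9 libraries and were not tested.

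Spread between libraries was similar in the groups, with a median coefficient of variation over the 87 members of 17.6% in schisandrin B, 18.8% in fibrosis and 14.3% in normal livers. Some well-read members varied much more. Rps9, a small subunit protein, was at 113, 86.5 and 24.9 CPM in schisandrin B livers, 172, 120 and 63.2 CPM in fibrosis livers and 156, 23.8 and 18.9 CPM in normal livers, so that the first normal library stood far above the other two. Rps6 was at 79.5, 119 and 30.3 CPM in schisandrin B livers, 167, 71.5 and 120 CPM in fibrosis livers and 79.7, 97.5 and 95.1 CPM in normal livers, and its groups overlapped. Rps13 was at 21.7, 27 and 27.8 CPM in schisandrin B livers, 38.9, 9.84 and 17 CPM in fibrosis livers and 18.6, 11.9 and 8.26 CPM in normal livers. None of these 3 passed a test in any comparison on the TMM scale.

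Genes that build ribosomes had larger median changes than the ribosomal proteins themselves in both comparisons with fibrosis livers, but not in schisandrin B over normal livers, where the members' median was 0.44. Of 21 factors of ribosome assembly and export, 20 rose in fibrosis over normal livers (median log2 fold change 1.59), 19 fell in schisandrin B against fibrosis livers (-1.48), and 5 were called higher in schisandrin B than in normal livers (0.35). These are 95.2, 90.5 and 23.8%, beside 25.4, 24.8 and 5.25% of all rows, and were not tested. Bysl, needed for the small subunit precursor, was at 23, 17.2 and 14 CPM in schisandrin B livers, 72.9, 75.9 and 61.9 CPM in fibrosis livers and 7.39, 7.38 and 11.3 CPM in normal livers; the groups did not overlap. The 18 tested subunits and factors of RNA polymerase I, which makes the large rRNAs, gave 12 higher in fibrosis over normal livers (1.38), 12 lower in schisandrin B against fibrosis livers (-1.53) and 1 higher in schisandrin B over normal livers (0.37). These are 66.7, 66.7 and 5.56%, beside 25.4, 24.8 and 5.25% of all rows, the last near the share of all rows. These shares were not tested either. The shared subunits Polr2e, Polr2f, Polr2k and Polr2l passed no test, with log2 fold changes of -0.14 to 0.08 in fibrosis over normal livers. Ubtf and Ttf1, which are not shared subunits, passed no test either (0.26, adjusted p = 0.358 and -0.08, adjusted p = 0.842 there). Myc, the transcription factor known to drive ribosome production, was at 33.2, 14.4 and 8.86 CPM in schisandrin B livers, 247, 330 and 206 CPM in fibrosis livers and 10, 26.5 and 10.7 CPM in normal livers, with log2 fold changes of 4.05 ± 0.55 in fibrosis over normal livers (adjusted p = 0.000241) and -3.8 ± 0.54 in schisandrin B over fibrosis livers (adjusted p = 0.000362).

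Of 20 other translation genes with TOP mRNAs, 12 rose in fibrosis over normal livers (median 0.67), which is 60% beside 25.4% of all rows. In schisandrin B against fibrosis livers 11 fell and 1 rose (-0.68), which is 55 and 5% beside 24.8 and 22.5%. In schisandrin B against normal livers 1 fell, Eef1g (-0.72, adjusted p = 0.0277), which is 5% beside 5.25% and so near the share of all rows. None of these shares was tested. Pabpc1, the poly(A)-binding protein, was at 196, 201 and 210 CPM in schisandrin B livers, 749, 563 and 482 CPM in fibrosis livers and 250, 325 and 291 CPM in normal livers, with no overlap of fibrosis and the others. Subunits of elongation factor complex 1 differed among themselves. Eef1d, Eef1g and Eef1b2 rose in fibrosis over normal livers by 0.9 (adjusted p = 0.00102), 0.56 (0.0225) and 0.52 (0.018), with adjusted p in brackets. In schisandrin B against fibrosis livers Eef1d fell by 0.97 (0.000663) and Eef1g by 1.28 (0.000201), and Eef1b2 had -0.38 (0.0697). Eef1a1 had log2 fold changes of 0.16 (adjusted p = 0.495) in fibrosis over normal and -0.4 (0.101) in schisandrin B over fibrosis livers. In the same order Eef2 had 0.55 (0.0734) and fell by 0.75 (0.0214), a call lost without the first fibrosis library (-0.47, 0.0602) or any 1 of the schisandrin B libraries (-0.72, -0.72 and -0.75). The call of Eef2 was also lost with the ribosomal protein total (-0.38, 0.218). Fau, which encodes a ribosomal protein fused to a ubiquitin-like domain, had 0.07 (0.818) and was called higher in schisandrin B than in fibrosis livers by 0.67 (0.024), a call lost with library totals (0.42, 0.105) and without the third schisandrin B (0.53), second fibrosis (0.61) or the third fibrosis library (0.55). Tpt1 had 0.18 (0.525) and -0.2 (0.489).

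Mitochondrial ribosomal proteins, which form the separate ribosome of that organelle, had medians of the other sign on the TMM scale in both comparisons with fibrosis livers. Of 71 tested, 5 rose and 19 fell in fibrosis over normal livers (median -0.24), which is 7.04 and 26.8% beside 25.4 and 22.9% of all rows. In schisandrin B over fibrosis livers 22 rose and 7 fell (0.34), which is 31 and 9.86% beside 22.5 and 24.8%. In schisandrin B over normal livers 4 rose (0.07), which is 5.63% beside 5.25%. The shares of mitochondrial genes lower in fibrosis over normal livers and higher in schisandrin B over normal livers were thus near those of all rows, and none of these shares was tested. The counts depended on the scale, for with library totals 16 were called higher and 4 lower, 11 higher and 11 lower, and 7 higher in the same order of comparisons. The contrast in sign depended on it too. In fibrosis over normal livers the medians were 0.21 beside 0.95 for the members with library totals, and -0.8 beside -0.06 with the ribosomal protein total. In schisandrin B over fibrosis livers they were 0.05 beside -0.44, and 0.65 beside 0.15. In the Mdm2 and p53 group, whose Mdm2 is bound by free Rpl5 and Rpl11, 4 of 5 tested genes rose in fibrosis over normal livers, 4 fell in schisandrin B against fibrosis livers, and 2 rose in schisandrin B over normal livers. These are 80, 80 and 40%, beside 25.4, 24.8 and 5.25% of all rows. They come from 5 genes and were not tested. Mdm2 was at 21, 18.6 and 16.6 CPM in schisandrin B livers, 50.8, 57.9 and 44.4 CPM in fibrosis livers and 16.3, 15 and 12 CPM in normal livers. Cdkn1a, the p53-induced cell cycle inhibitor, was at 8.7, 5.98 and 5.75 CPM, 138, 75 and 55.5 CPM, and 0.945, 1.63 and 1.21 CPM in these groups, and unlike Mdm2 was also called higher in schisandrin B than in normal livers (2.4 ± 0.39, adjusted p = 0.0034). For both genes the fibrosis libraries were far above all others.

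Of 25 genes of mTORC1 and growth control, 8 rose and 7 fell in fibrosis over normal livers (median 0.01). These are 32 and 28%, beside 25.4 and 22.9% of all rows. In schisandrin B over fibrosis livers 6 rose and 7 fell (0.05), which is 24 and 28% beside 22.5 and 24.8%. In schisandrin B over normal livers 1 rose and 2 fell (0.03), which is 4 and 8% beside 5.25 and 5.25%. All were near the shares of all rows, so these counts are not read as particular to the list. Eif4ebp1, the translation repressor that mTORC1 inactivates, rose by 1.69 ± 0.17 in fibrosis over normal livers (adjusted p = 2.01e-05) and fell by 1.59 in schisandrin B against fibrosis livers (adjusted p = 3.54e-05). Sesn2, a stress-induced inhibitor of mTORC1, rose by 2.23 (adjusted p = 3.68e-05) and fell by 1.87 (adjusted p = 0.000126) in the same comparisons. Larp1, the protein that binds TOP mRNAs, was called higher in fibrosis over normal livers by 0.48 (adjusted p = 0.0432), which turned to -0.13 relative to the ribosomal protein total. The call was lost without the first or second fibrosis library (0.38 and 0.49) or any 1 normal library (0.4, 0.51 and 0.5). It was also lost with DESeq2 size factors (0.46), upper-quartile factors (0.37), no filter (0.5) and a fit of the 2 groups alone (0.47). Against fibrosis livers schisandrin B gave -0.45 (adjusted p = 0.0544). Ddit4, another inhibitor, had 0.67 (adjusted p = 0.162) and 0.13 (adjusted p = 0.8). Of 12 genes of ribosome rescue and stress, 5 rose and 1 fell in fibrosis over normal livers (median 0.39). These are 41.7 and 8.33%, beside 25.4 and 22.9% of all rows. In schisandrin B over fibrosis livers 6 fell and 1 rose (-0.49), which is 50 and 8.33% beside 24.8 and 22.5%. In schisandrin B over normal livers 1 rose and 1 fell, 8.33% each beside 5.25% each. The last are near the shares of all rows and are not read as particular to the list. None of these shares was tested. Pelo, which splits stalled ribosomes, was at 29.6, 30.7 and 32.8 CPM in schisandrin B livers, 200, 138 and 126 CPM in fibrosis livers and 29.5, 29.6 and 29.4 CPM in normal livers, the schisandrin B and normal libraries lying within 4 CPM of each other.

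**Figure D5:**
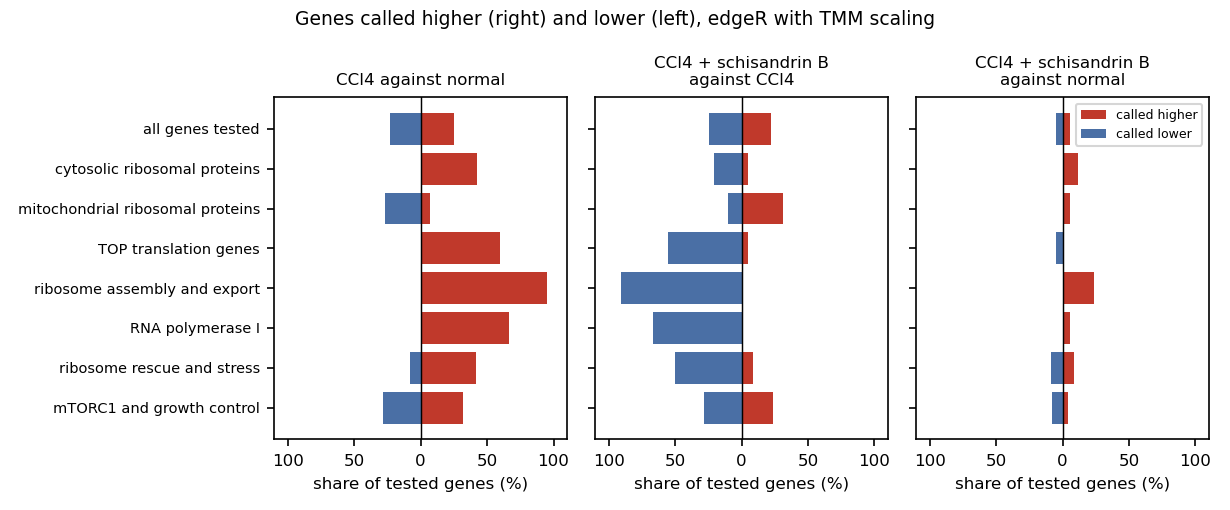
Share (%) of tested genes called higher (right, red) and lower (left, blue) in each comparison by edgeR with TMM scaling, for all rows and for 7 gene lists. Cytosolic ribosomal proteins have 42.5% called higher in fibrosis over normal livers, beside 25.4% of all rows, and ribosome assembly factors have 95.2%; the mitochondrial ribosomal proteins have more lower than higher calls there.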

How the data were processed

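The authors deposited raw counts per gene symbol for the 9 liver libraries in 1 table; the aligner, counter and annotation are not given in the sources at hand, and the submitters' processing notes name the build GRCm38, although the symbols are those of the rat. No sequence or coordinate is therefore printed. Counting by strand is not stated. No sample column was left unused and no row lacked a name. Groups came from the labelled source of each liver.

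Rows were filtered with filterByExpr, scaled by TMM and tested with edgeR 4.0.16 (R 4.3.3; quasi-likelihood F test, robust, all 9 libraries in 1 fit), with Benjamini-Hochberg adjustment over 14581 rows and a threshold of 0.05. CPM divide each count by the TMM-scaled library size. The standard error is the absolute log2 fold change divided by the square root of F. DESeq2 1.42.0, limma 3.58.1 (voom), other scalings and filters, fits of 2 groups and leaving out each library were alternatives; scripts were tested on simulated data. Figures used matplotlib 3.10.9.

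Members named are, per comparison and direction, the 8 with the lowest adjusted p among called members whose libraries do not overlap and whose mean is at least 20 CPM in the higher group, plus fixed names. Rpl12, Rpl4, Rpl21, Rps10, Rps10l1, Rpl31l2, Rpl31l4, Rps4x, Rps9, Rps13, Rps4y2, the members listed as called within a list or within the pool, and the context genes Bysl, Pabpc1, Eef1b2, Eef1d, Eef1g, Pelo, Ddx3y, Acta2, Alb, Ubtf, Ttf1, the collagens and the shared polymerase subunits were chosen after their values were seen. Members and lists were chosen with earlier results of these data known. Adding copy rows and using core members alone were chosen after seeing the data. Single values of 2 genes are not reported here.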

Additional observations from a re-analysis of the deposited data

How the results depend on the processing

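With 3 libraries a group, permutation tests cannot pass 0.05, low rows carry few counts, and reads shared with copies may be split. No paired analysis was possible because the labels give no replicate numbers. The differences in the share of counts kept their sign under every alternative run (0.569 to 0.668 for fibrosis over normal, -0.462 to -0.366 for schisandrin B over fibrosis, 0.151 to 0.251 for schisandrin B over normal livers, in percentage points). Scaling and the choice of test do not enter this share. As the groups did not overlap, leaving out 1 library could not turn its sign. Of the single-gene values, 787 kept direction and side of the threshold under other settings and 36 turned sign. Among those that kept their sign 23 lost and 31 gained a call. With 1 library left out 448 kept both and 23 turned sign, while 50 lost and 7 gained a call with the same sign. Values that turned sign could also lose a call, as those of Rplp0, Rpsa and Larp1 did with the ribosomal protein total. The cause was not tested for any change below.

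With library totals, fibrosis over normal livers gave 69 members higher (median 0.95), schisandrin B over fibrosis livers 2 higher and 33 lower (-0.44), and schisandrin B over normal livers 30 higher (0.6). With the ribosomal protein total these were 7 higher and 2 lower (-0.06), 16 and 7 (0.15), and 6 and 2 (0.19), since that scale removes the shared part of the change. Higher calls in schisandrin B over fibrosis livers were 7 with upper-quartile factors and 2 without a filter. In schisandrin B over normal livers DESeq2 gave 20 higher and 1 lower, and a fit of the 2 groups alone 28 higher and 2 lower. Limma voom gave 1 lower there, and its higher calls are not given here. With copy rows added the calls were 38 higher, 4 higher and 20 lower, and 10 higher in the order of comparisons used above. Leaving out 1 library gave 24 to 42 higher and 0 to 1 lower calls (median 0.39 to 0.64) in fibrosis over normal livers, 2 to 9 higher and 11 to 20 lower (-0.25 to 0.02) in schisandrin B over fibrosis livers, and 1 to 8 higher (0.35 to 0.55) in schisandrin B over normal livers.

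Log2 fold changes that turned sign were mostly of genes that passed no test. With the ribosomal protein total, fibrosis over normal livers turned for Rpl22 (-0.21), Rps27 (-0.17), Rpl39 (-0.29), Rpl11 (-0.12), Rplp0 (-0.03), Rps6 (-0.23), Rpsa (-0.07), Eef1a1 (-0.44), Eef2 (-0.07), Tpt1 (-0.44), Fau (-0.52) and Larp1 (-0.13); schisandrin B over fibrosis livers for Rpl22 (0.04), Rps27 (0.1), Rpl11 (0.31), Rpsa (0.33) and Tpt1 (0.17); and schisandrin B over normal livers for Rpl22 (-0.17), Rps27 (-0.07), Rpl3 (-0.17), Rplp0 (-0.05), Myc (0), Eif4ebp1 (-0.16) and Larp1 (-0.22). With library totals, Rps19 turned in fibrosis over normal livers (0.22), Ddit4 in schisandrin B over fibrosis livers (-0.14), and Rpl22l1 (0.03), Rps27l (0.1), Rpl5 (0.03) and Tpt1 (0.14) in schisandrin B over normal livers. With upper-quartile factors, Fau turned in fibrosis over normal livers (-0.05), Rpl11 (0.09) and Rpsa (0.11) in schisandrin B over fibrosis livers and Tpt1 (0) in schisandrin B over normal livers. With a mean of at least 5 CPM, Rpl11 (0.01) and Rpsa (0.03) turned in schisandrin B over fibrosis livers.

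Leaving out 1 library gave ranges across 0 for Rps19 (-0.7 to 0.06), Fau (-0.12 to 0.23) and Tpt1 (-0.06 to 0.36) in fibrosis over normal livers. In schisandrin B over fibrosis livers these were Rpl11 (-0.14 to 0.13), Rpsa (-0.12 to 0.11), Tpt1 (-0.38 to 0.04) and Ddit4 (-0.18 to 0.29). In schisandrin B over normal livers they were Rpl22 (-0.08 to 0.17), Rpl3 (0 to 0.12), Rps27 (-0.04 to 0.33), Rps27l (-0.17 to 0.01), Rps6 (-0.73 to 0.13), Tpt1 (-0.1 to 0.05), Larp1 (-0.05 to 0.09), Eif4ebp1 (-0.06 to 0.17) and Myc (-0.43 to 0.85).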
